A study of Mus musculus with 28 samples.

Results

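The EGF receptor and its ligands are represented here by 7 genes: the receptor gene Egfr and the ligand genes Areg, Ereg, Hbegf, Btc, Tgfa and Epgn. They were taken by symbol from the 54429 genes of the deposited count table. Areg had been picked out from earlier results as far lower in smooth muscle cultures than in proliferating cells, so its levels in those groups are a description, without a test. The values were measured by RNA sequencing of O9-1 cells. This mouse line represents the cranial neural crest, an embryonic cell population from which much of the facial skeleton forms.

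The 28 libraries form 8 groups, each a culture type at 21% O2 (normoxic, 4 libraries) or 0.5% O2 (hypoxic, 3 libraries), and all come from this single line without any genetic change named in the labels. Proliferating cells were kept in DMEM conditioned by STO cells with 15% fetal calf serum, 0.1 mM non-essential amino acids, 55 µM beta-mercaptoethanol, 25 ng/ml bFGF and 5 ng/ml LIF. Osteoblast cultures spent 10 days in alpha-MEM with 10% serum, 10 mM beta-glycerophosphate, 0.1 µM dexamethasone and 100 ng/ml BMP-2. Chondrocyte cultures spent 3 days in that osteoblast medium. They then spent 7 days as micromasses on matrigel, in alpha-MEM with 5% serum, insulin-transferrin-selenium, 0.1 µM dexamethasone, 10 ng/ml TGF-beta3 and 50 ng/ml BMP-2. Smooth muscle cultures spent 3 days in DMEM with 10% serum. All media held penicillin and streptomycin. Culture type, medium, serum and days in culture changed together, so their parts in a difference cannot be told apart. The labels do not say that libraries of a group came from separate cultures, so p-values measure the spread between these libraries, which may be technical.

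The ligands of this family are made as membrane-anchored precursors and are released by metalloproteases such as ADAM17. Binding of a ligand makes the receptor pair with itself or with ERBB2, which activates the RAS, ERK and AKT pathways. Negative regulators such as ERRFI1 then limit the signal. Amphiregulin (Areg), TGF-alpha (Tgfa) and epigen (Epgn) bind EGFR, whereas betacellulin (Btc), epiregulin (Ereg) and HB-EGF (Hbegf) also bind ERBB4. In the skeleton, EGF receptor signalling is known for its part in cartilage growth plates and in holding back osteoblast maturation.

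On the mouse build GRCm38 (mm10), Epgn (chr5:91027464-91035215, plus strand), Ereg (chr5:91074622-91093646, plus strand), Areg and Btc lie side by side in a span of 375.5 kb of chromosome 5 (chr5:91027464-91402994), and they are the 4 protein-coding genes annotated in that span. Areg covers chr5:91139599-91148432 on the plus strand and Btc covers chr5:91357261-91402994 on the minus strand. Egfr covers chr11:16752203-16918158 and Tgfa chr6:86195223-86275719, both on the plus strand. RefSeq start sites matched 5 of the 7 genes, Ereg and Hbegf being the others. The 250 bases before the start of Areg, Btc, Tgfa and Egfr are shown because Areg and Btc are neighbours that were both highest in proliferating cells, while Tgfa was highest in osteoblast cultures and Egfr in normoxic osteoblast and chondrocyte cultures. They are RefSeq sequences of build GRCm38.p6, written 5′ to 3′ on the gene's strand, at chr5:91139349-91139598 (plus), chr5:91402995-91403244 (minus), chr6:86194972-86195221 (plus) and chr11:16751953-16752202 (plus). Capitals mark a motif match.
Areg: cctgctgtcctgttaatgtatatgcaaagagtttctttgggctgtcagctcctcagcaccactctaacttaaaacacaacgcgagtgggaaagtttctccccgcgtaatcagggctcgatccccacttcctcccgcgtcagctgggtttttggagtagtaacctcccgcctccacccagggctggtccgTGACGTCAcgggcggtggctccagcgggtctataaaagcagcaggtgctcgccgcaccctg
Btc: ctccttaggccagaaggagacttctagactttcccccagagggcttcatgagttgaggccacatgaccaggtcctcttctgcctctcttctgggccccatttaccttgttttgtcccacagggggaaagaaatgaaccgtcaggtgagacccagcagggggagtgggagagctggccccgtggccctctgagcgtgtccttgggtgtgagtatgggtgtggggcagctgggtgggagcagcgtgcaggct
Tgfa: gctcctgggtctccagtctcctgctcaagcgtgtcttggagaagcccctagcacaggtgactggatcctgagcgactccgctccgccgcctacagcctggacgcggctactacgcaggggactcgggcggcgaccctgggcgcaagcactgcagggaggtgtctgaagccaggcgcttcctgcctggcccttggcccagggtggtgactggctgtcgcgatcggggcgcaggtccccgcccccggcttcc
Egfr: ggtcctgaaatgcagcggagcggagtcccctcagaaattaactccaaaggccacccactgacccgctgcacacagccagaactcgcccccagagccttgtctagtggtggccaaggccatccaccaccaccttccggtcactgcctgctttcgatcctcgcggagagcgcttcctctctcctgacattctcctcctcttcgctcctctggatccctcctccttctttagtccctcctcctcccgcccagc
Motifs searched on both strands were the cAMP response element TGACGTCA, the AP-1 site TGANTCA and the hypoxia response element core ACGTG, and a match to the first contains neither of the others. The Areg window held 1 cAMP response element, with its first base at -61 from the start, and no other match. The windows of Btc, Tgfa, Egfr and Epgn held none of these letters. Only the ACGTG form of the hypoxia core was searched, and GCGTG, which the Btc and Tgfa windows hold, was not. Of 32817 promoter windows of this length, 1.55% held the cAMP response element, 6.75% the AP-1 site and 16.6% the hypoxia core.

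Library totals ranged from 19.9 to 64.7 M counts (median 26.8 M). The 3 hypoxic smooth muscle libraries stood apart: the genes of the mitochondrial ribosomal RNAs (mt-Rnr1, mt-Rnr2) took 11.6% to 13.3% of their counts, against 0.0252% to 0.0889% in the other 25 libraries. Their TMM factors (edgeR's scaling for library composition) were 0.505 to 0.533, against 0.901 to 1.29. They also lacked the smooth muscle markers of their label. The summed level of 8 smooth muscle markers was 95.1 to 119 CPM there, with 3 of 8 at 1 CPM or more and Myocd at 0, against 3580 to 4040 CPM with 6 of 8 in the normoxic smooth muscle cultures. These markers were not particular to smooth muscle cultures: their sum was 3660 to 5180 CPM in normoxic and 2210 to 2500 CPM in hypoxic osteoblast cultures, and 2070 to 2540 and 1890 to 2270 CPM in chondrocyte cultures. It was 94.4 to 103 CPM in normoxic and 191 to 195 CPM in hypoxic proliferating cells. Of 5 macrophage markers, Cd68 was at 35.0 CPM in hypoxic smooth muscle cultures while Adgre1 and Lyz2 had 0 counts, and their sum was 33.6 to 37.4 CPM there against 1.01 to 5.86 CPM in all other groups. Some values below are also given with other scaling, and Areg with mt-Rnr1 and mt-Rnr2 removed before scaling. Beyond this, the part of these features in the results below was not tested. Of 8 neural crest markers, 5 were at 1 CPM or more in every group (mean sum 826 to 2770 CPM), while Sox10 and Foxd3 were at or near 0. Of 6 epithelial markers, 1 passed 1 CPM in chondrocyte cultures, where their mean sum was 4.95 CPM at 21% O2 and 9.37 CPM at 0.5% O2, against at most 1.13 CPM in the other groups, and Cldn4 and Esrp1 were at 0 in every group. Chondrocyte markers peaked in normoxic chondrocyte libraries (2890 to 8820 CPM summed over 8 markers, 857 to 1290 CPM in the hypoxic ones), but summed to 185 to 1480 CPM in normoxic osteoblast libraries, a range that overlaps the hypoxic chondrocyte one, and to 595 to 637 CPM in hypoxic osteoblast libraries. Normoxic replicate 4 also stood apart in 3 of 4 groups, by the chi-square between the counts of 2 libraries divided by the number of genes. In osteoblast cultures pairs with replicate 4 gave 91.1 to 97.0, against 2.89 to 3.88 for the other pairs. The values were 18.3 to 22.3 against 5.18 to 5.83 in proliferating cells, and 14.0 to 20.2 against 6.10 to 7.93 in smooth muscle cultures. In chondrocyte cultures pairs with replicate 4 gave 27.8 to 36.5, but the other pairs 8.58 to 30.5, so it did not stand apart alone there. Other replicate numbers stood apart too: in hypoxic chondrocyte cultures pairs with replicate 1 gave 28.1 and 31.6, against 9.93. In hypoxic osteoblast cultures pairs with replicate 3 gave 18.2 and 29.3, against 10.6. With replicates 1 to 3 only, no call of a member was lost, and those gained are given with the genes. Osteoblast markers, which include Col1a1, summed to 38600 to 51800 CPM in chondrocyte cultures and 6710 to 15600 CPM in osteoblast cultures. At 21% O2, 8 hypoxia markers summed to 272 to 302 CPM in proliferating, 712 to 1240 in chondrocyte, 511 to 642 in osteoblast and 232 to 250 in smooth muscle libraries. At 0.5% O2 the ranges were 3520 to 3750, 2550 to 2960, 3480 to 4190 and 3220 to 3470 CPM. Normoxic chondrocyte libraries were thus the highest of the normoxic ones.

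Egfr (ENSMUSG00000020122) was barely detected in proliferating cells and rose in chondrocyte and osteoblast cultures, more so at 21% O2. Levels are given as CPM, library-scaled counts after TMM scaling over all 28 libraries. In such bulk samples, fewer cells expressing a gene and less RNA per cell cannot be told apart. At 21% O2, Egfr was at 0.323, 0.162, 0 and 0.245 CPM in the proliferating libraries, which held 31 Egfr counts in all. It was at 7.47, 6.35, 8.14 and 4.08 CPM in chondrocyte libraries and at 9.50, 8.71, 8.61 and 6.6 CPM in osteoblast libraries. Every chondrocyte and osteoblast library lay above every proliferating one. The log2 fold change from proliferating cells was 5.20 (SE 0.441; edgeR, adjusted p = 5.83e-07) in chondrocyte and 5.54 (SE 0.436; adjusted p = 1.61e-06) in osteoblast cultures.

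At 0.5% O2 the rise of Egfr was smaller. Its level was 0, 0.431 and 0.411 CPM in proliferating libraries, 1.10, 1.65 and 1.08 CPM in chondrocyte libraries and 2.59, 2.06 and 2.01 CPM in osteoblast libraries. These groups did not overlap with the proliferating one, and the log2 fold changes were 2.18 (SE 0.660; edgeR, adjusted p = 0.0111) and 2.99 (SE 0.560; adjusted p = 0.000224). Without hypoxic proliferating replicate 1, which had 0 Egfr counts, they were 1.58 and 2.39. Egfr fell with low oxygen in both cultures, with log2 fold changes of -2.36 (SE 0.278; adjusted p = 0.000137) in chondrocyte and -1.91 (SE 0.185; adjusted p = 3.43e-05) in osteoblast cultures.

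The difference between the rise of Egfr at 0.5% O2 and that at 21% O2 was -2.99 on the log2 scale for chondrocyte cultures (SE 0.921; edgeR interaction term, adjusted p = 0.0160) and -2.51 for osteoblast cultures (SE 0.853; adjusted p = 0.0220). This difference rests on the few Egfr counts in proliferating cells. It no longer passed by limma-voom (adjusted p = 0.164 and 0.169), without hypoxic proliferating replicate 2 (0.0883 and 0.113) or without replicate 3 (0.0868 and 0.109), while its direction stayed the same. Its size ranged from -3.59 to -2.54 for chondrocyte and from -3.10 to -2.05 for osteoblast cultures when libraries were left out in turn. Egfr was low in smooth muscle cultures, at 0.276, 0.913, 0.638 and 0.991 CPM at 21% O2 and 0.675, 0.499 and 0.185 CPM at 0.5% O2. The 2 oxygen levels overlapped there (log2 fold change -0.55, SE 0.646; edgeR, adjusted p = 0.450, but -1.90 and called, adjusted p = 0.0125, with scaling by library size alone), as did the smooth muscle and proliferating groups. Ordered by mean, normoxic osteoblast and chondrocyte cultures overlapped at the top. Hypoxic osteoblast and hypoxic chondrocyte cultures each stood apart from their neighbours (by library size alone, hypoxic chondrocyte and normoxic smooth muscle libraries overlapped), and each of the 4 lowest groups overlapped with the next. The antisense gene Egfros was at no more than 0.0516 CPM in any group.

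Areg (ENSMUSG00000029378), which encodes amphiregulin, was high in proliferating cells at both oxygen levels and near the detection limit in chondrocyte and osteoblast cultures. It was at 57.4, 57.9, 58.3 and 87.9 CPM in normoxic and 57.7, 53.9 and 62.3 CPM in hypoxic proliferating libraries, groups that overlapped. Replicate 4 of the normoxic group was the highest. In normoxic smooth muscle libraries Areg was at 0.735, 0.456, 0.435 and 0.991 CPM, a log2 fold change of -6.59 from proliferating cells (SE 0.255), or 96.5-fold lower. In hypoxic smooth muscle libraries it was at 5.70, 8.78 and 8.24 CPM, a log2 fold change of -2.83 (SE 0.155) from hypoxic proliferating cells. All 3 lay above every normoxic smooth muscle library, with a log2 fold change of 3.59 (SE 0.353) between the oxygen levels. With mt-Rnr1 and mt-Rnr2 removed before scaling, the hypoxic smooth muscle mean of Areg was 7.67 CPM, against 7.57 ± 1.64 CPM (SD, n = 3) with them. Scaled by library size alone, the mean was 3.91 CPM and the log2 fold change between oxygen levels 2.22.

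In chondrocyte libraries Areg was at 0.185, 0, 0.0711 and 0.655 CPM at 21% O2 and at 0.129, 0.315 and 0.460 CPM at 0.5% O2. Its counts were 26 in each of these groups, and the pooled level was 273-fold below normoxic proliferating cells (95% exact interval 186 to 418, counting error only) and 194-fold below hypoxic ones (132 to 297). In normoxic osteoblast libraries Areg was at 0, 0, 0.0678 and 0.0961 CPM, 5 counts in all, and the pooled level was 1440-fold below that of proliferating cells (618 to 4440). In hypoxic osteoblast libraries it was at 0.503, 0.309 and 0.282 CPM, 161-fold below hypoxic proliferating cells (113 to 239). Replicate 4 of the normoxic groups weighs on the fitted changes. Without chondrocyte replicate 4 the fitted log2 fold change moved from -8.05 to -9.31, and without osteoblast replicate 4 from -10.39 to -11.21. All 3 hypoxic osteoblast libraries lay above the 4 normoxic ones in Areg, with 30 counts against 5, too few for the gene to enter that fit. The 5 lowest groups overlapped with their neighbours, except that by library size alone normoxic smooth muscle libraries lay above hypoxic osteoblast ones without overlap.

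Ereg (ENSMUSG00000029377), which encodes epiregulin and lies next to Areg, had its highest levels in the same cultures as Areg, but kept a measurable level everywhere. Normoxic proliferating libraries were at 65.4, 69.5, 73.8 and 77.8 CPM and hypoxic ones at 39.6, 40.2 and 41.0 CPM, without overlap. The log2 fold change with low oxygen in proliferating cells was -0.77 (SE 0.0679; edgeR, adjusted p = 2.49e-07). Chondrocyte libraries held 4.94, 3.32, 4.05 and 8.11 CPM at 21% O2 and 7.51, 6.38 and 5.68 CPM at 0.5% O2. Osteoblast libraries held 4.33, 4.14, 4.98 and 3.30 CPM at 21% O2 and 7.70, 8.21 and 9.29 CPM at 0.5% O2. Both culture types lay below proliferating cells in every library. Ereg fell in them by 3.73 (adjusted p = 1.51e-07) and 4.04 (adjusted p = 4.21e-09) on the log2 scale at 21% O2, and by 2.63 (adjusted p = 1.63e-10) and 2.26 (adjusted p = 3.36e-11) at 0.5% O2. SEs of these 4 changes were 0.224, 0.124, 0.109 and 0.106.

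The fall of Ereg was smaller at 0.5% O2, by 1.13 on the log2 scale in chondrocyte (SE 0.280; edgeR interaction term, adjusted p = 0.00474) and 1.82 in osteoblast cultures (SE 0.156; adjusted p = 1.27e-07). Within osteoblast cultures Ereg rose with low oxygen by 1.00 on the log2 scale (SE 0.167; adjusted p = 0.000863). In chondrocyte cultures the oxygen levels overlapped (0.34, SE 0.270; adjusted p = 0.414). Without normoxic chondrocyte replicate 4, the library at 8.11 CPM, that value was 0.65 (adjusted p = 0.0304). Smooth muscle libraries held 5.73, 3.76, 5.05 and 4.78 CPM of Ereg at 21% O2 and 24.6, 17.1 and 28.7 CPM at 0.5% O2. The 2 sets did not overlap, and the log2 fold change was 2.35 (SE 0.194; adjusted p = 3.59e-08), or 0.98 (adjusted p = 0.000472) with scaling by library size alone. The antisense gene Gm19610 overlaps Ereg, and the labels do not say whether counting used strand. Its level was 4.33 CPM in normoxic and 3.94 CPM in hypoxic proliferating cells and 3.44 CPM in hypoxic smooth muscle cultures, against 0.477 to 0.789 CPM in the chondrocyte, osteoblast and normoxic smooth muscle groups.

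Across the 28 libraries, log2 CPM of Areg and Ereg had a Pearson correlation of 0.955, that of Areg and Btc 0.775, and that of Areg and Egfr -0.858. These correlations are descriptions: the libraries share 8 groups, and the choice of Areg fixed part of its pattern. Of 13410 genes ranked, those most like Areg over the libraries were Mlkl (r = 0.975), Krt12 (0.967), Kif2a (0.966), Anxa10 (0.965) and Dusp5 (0.963). Krt12 was at 11.3 CPM in normoxic proliferating cells, 2.34 CPM in hypoxic smooth muscle cultures and at 0 in chondrocyte and osteoblast cultures. Dusp5, an ERK phosphatase gene, was at 95.5 CPM in normoxic and 127 CPM in hypoxic proliferating cells, and was lower in smooth muscle cultures. Those most like Egfr were Cpm (r = 0.923), Tppp3 (0.902), Mgp (0.899), Fibin (0.899) and Mmp2 (0.893). The carboxypeptidase gene Cpm was at 328 CPM in normoxic and 39.0 CPM in hypoxic osteoblast cultures, and Mgp, an inhibitor of calcification, at 283 and 162 CPM.

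**Figure D1:**
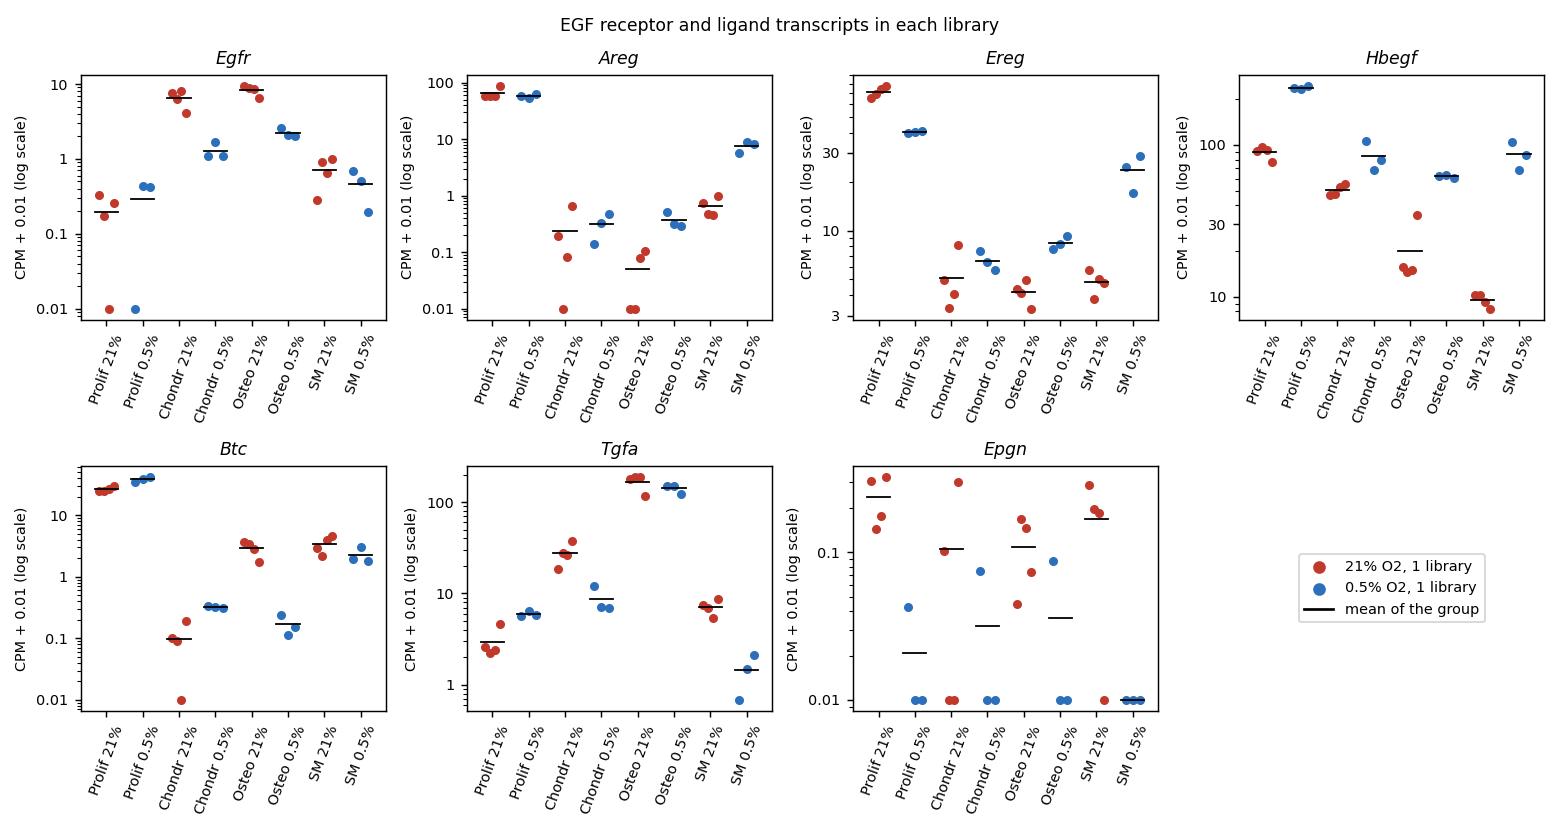
Level of each gene in each of the 28 libraries, as CPM + 0.01 on a log axis, by culture type (Prolif, Chondr, Osteo, SM for smooth muscle) and oxygen level, with a black line at the group mean. Areg, Ereg and Btc are highest in proliferating cells, Tgfa in osteoblast cultures and Egfr in normoxic osteoblast and chondrocyte cultures, and points at the 0.01 line are libraries with 0 counts.

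Hbegf (ENSMUSG00000024486, on chromosome 18) encodes HB-EGF, a heparin-binding ligand. It was higher at 0.5% O2 in every culture type. Proliferating libraries held 91.4, 97.2, 92.1 and 76.7 CPM at 21% O2 and 235, 233 and 245 CPM at 0.5% O2, a log2 fold change of 1.47 (SE 0.0630; edgeR, adjusted p = 2.66e-10). Chondrocyte libraries held 46.5, 47.5, 52.9 and 55.3 CPM at 21% O2 and 106, 68.0 and 79.5 CPM at 0.5% O2, a log2 fold change of 0.73 (SE 0.134; adjusted p = 0.00407). Osteoblast libraries held 15.6, 14.5, 15.0 and 34.4 CPM at 21% O2 and 62.4, 62.8 and 60.5 CPM at 0.5% O2. Their log2 fold change was 1.63 (SE 0.308; adjusted p = 0.00286). No hypoxic library overlapped with the normoxic libraries of its culture type.

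Smooth muscle cultures had the lowest normoxic level of Hbegf, 10.2, 10.2, 9.28 and 8.34 CPM, and 105, 67.8 and 86.3 CPM at 0.5% O2. The log2 fold change was 3.25 (SE 0.137; edgeR, adjusted p = 1.42e-11), or 1.88 (adjusted p = 1.92e-08) with scaling by library size alone. Against proliferating cells, Hbegf fell in chondrocyte cultures by 0.75 on the log2 scale at 21% O2 (SE 0.0788; adjusted p = 2.84e-06) and by 1.5 at 0.5% O2 (SE 0.147; adjusted p = 4.78e-05). It fell in osteoblast cultures by 2.11 (SE 0.274; adjusted p = 6.45e-05) and 1.94 (SE 0.0662; adjusted p = 8.66e-13). The chondrocyte change differed between oxygen levels by -0.72 (SE 0.165; adjusted p = 0.00247), and by -0.67 (adjusted p = 0.0836) with all 28 libraries in one fit. The osteoblast change differed by 0.21 (SE 0.344; adjusted p = 0.644), but by 0.62 (adjusted p = 1.70e-05) without normoxic osteoblast replicate 4, the library at 34.4 CPM. Hypoxic proliferating cells ranked first, and normoxic proliferating, hypoxic smooth muscle and hypoxic chondrocyte libraries overlapped in turn below them. By library size alone, hypoxic smooth muscle libraries (34.2 to 55.8 CPM) lay below both normoxic proliferating (91.7 to 111 CPM) and hypoxic chondrocyte libraries (62.1 to 95.4 CPM), without overlap.

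Btc (ENSMUSG00000082361), which encodes betacellulin, had its highest levels in proliferating cells, and was lower in chondrocyte than in osteoblast cultures at 21% O2. Proliferating libraries held 25.0, 24.7, 26.8 and 29.8 CPM at 21% O2 and 34.8, 38.6 and 41.7 CPM at 0.5% O2. Btc rose there with low oxygen by 0.59 on the log2 scale (SE 0.0856; edgeR, adjusted p = 3.30e-05). Normoxic chondrocyte libraries held 0.0926, 0.0809, 0 and 0.182 CPM, 10 counts in all. Their log2 fold change from proliferating cells was -8.10 (SE 0.263; adjusted p = 1.05e-10), and the pooled level was 293-fold lower (95% exact interval 159 to 611). Normoxic osteoblast libraries held 3.67, 3.43, 2.85 and 1.70 CPM, a log2 fold change of -3.14 (SE 0.206; adjusted p = 4.38e-07).

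At 0.5% O2 chondrocyte libraries held 0.322, 0.315 and 0.296 CPM of Btc and osteoblast libraries 0.232, 0.103 and 0.141 CPM. The log2 fold changes from hypoxic proliferating cells were -6.94 (SE 0.161; edgeR, adjusted p = 8e-13) and -7.91 (SE 0.204; adjusted p = 3.64e-14). The values at the 2 oxygen levels went opposite ways in these cultures. In osteoblast cultures Btc fell by 4.17 on the log2 scale (SE 0.429; adjusted p = 4.96e-05), without overlap. In chondrocyte cultures the pooled level was 3.50-fold higher (1.64 to 8.11, on 27 against 10 counts), without overlap and too low to enter the fit. The osteoblast change differed between oxygen levels by -4.73 (SE 0.375; adjusted p = 5.82e-08). The chondrocyte change differed by 1.18 (SE 0.483; adjusted p = 0.0558), and by 1.75 (adjusted p = 0.0142) without normoxic chondrocyte replicate 4. Smooth muscle libraries held 2.88, 2.17, 3.94 and 4.58 CPM at 21% O2 and 1.95, 2.99 and 1.76 CPM at 0.5% O2, which overlapped (log2 fold change -0.55, SE 0.348; adjusted p = 0.166). Scaled by library size alone, that change was -1.92 (adjusted p = 0.000113).

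Tgfa (ENSMUSG00000029999), the gene of TGF-alpha, was the most abundant of these ligands in osteoblast cultures. Osteoblast libraries held 179, 188, 186 and 115 CPM at 21% O2 and 150.0, 151 and 124 CPM at 0.5% O2, against 2.58, 2.24, 2.42 and 4.62 CPM and 5.69, 6.39 and 5.85 CPM in proliferating libraries. All osteoblast libraries lay above all libraries of other cultures. The log2 fold change was 5.90 at 21% O2 (SE 0.276; edgeR, adjusted p = 5.70e-08) and 4.57 at 0.5% O2 (SE 0.106; adjusted p = 1.14e-14), a difference of -1.30 (SE 0.310; interaction term, adjusted p = 0.00296). The 2 oxygen levels overlapped within osteoblast cultures (log2 fold change -0.24, SE 0.167; adjusted p = 0.259). Without normoxic replicate 4, the library at 115 CPM, this change was -0.38 (adjusted p = 0.000818). In proliferating cells Tgfa rose with low oxygen by 1.09 (SE 0.231; adjusted p = 0.000976).

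Chondrocyte libraries held less Tgfa, at 18.3, 27.9, 26.6 and 37.7 CPM at 21% O2 and 12.1, 7.17 and 6.93 CPM at 0.5% O2. The log2 fold change from proliferating cells was 3.33 at 21% O2 (SE 0.283; edgeR, adjusted p = 2.16e-06) and 0.54 at 0.5% O2 (SE 0.205; adjusted p = 0.0320). The second is weak: without hypoxic chondrocyte replicate 1 it was 0.24 (adjusted p = 0.204). Without hypoxic proliferating replicates 1, 2 and 3 in turn the adjusted p was 0.0976, 0.0587 and 0.0975. Scaled by library size alone it was 0.21 (adjusted p = 0.361), and with all 28 libraries in one fit 0.55 (adjusted p = 0.109). The rises at the 2 oxygen levels differed by -2.75 (SE 0.408; adjusted p = 9.75e-05), and Tgfa fell with low oxygen in chondrocyte cultures by 1.66 (SE 0.288; adjusted p = 0.00516). Smooth muscle libraries held 7.38, 6.93, 5.37 and 8.72 CPM at 21% O2 and 0.675, 1.5 and 2.13 CPM at 0.5% O2. The hypoxic ones were lower without overlap (log2 fold change -2.27, SE 0.339; edgeR, adjusted p = 2.16e-05), and the log2 fold change was -3.64 (adjusted p = 7.48e-08) with scaling by library size alone. Gm43917, annotated on the other strand within Tgfa, was at no more than 0.866 CPM in any group.

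Epgn (ENSMUSG00000035020), which encodes epigen, passed the low-count filter in no comparison. Its counts over a group were 35 in normoxic and 1 in hypoxic proliferating cells, 11 and 2 in chondrocyte cultures, 11 and 2 in osteoblast cultures, and 22 and 0 in smooth muscle cultures. The 0 counts in hypoxic smooth muscle cultures allow a level of up to 0.0878 CPM (3 counts over the group). In normoxic proliferating libraries it was at 0.296, 0.135, 0.166 and 0.315 CPM, each above the 0.0325, 0 and 0 CPM of the hypoxic ones. The pooled ratio of hypoxic to normoxic proliferating cells was 0.0553 (95% exact interval 0.00136 to 0.329, counting error only).

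Read as a group, Ereg, Hbegf and Btc fell and Egfr and Tgfa rose with chondrocyte and osteoblast culture, at both oxygen levels. A gene was called changed where edgeR's Benjamini-Hochberg adjusted p was under 0.05 over all genes tested. In normoxic chondrocyte cultures 5 of 5 tested members were called, with Egfr and Tgfa higher and Ereg, Hbegf and Btc lower, against 74.9% of all genes tested (37.7% higher, 37.2% lower). In normoxic osteoblast cultures the same 2 were higher and the same 3 lower, against 78.7% of all genes (40.9% higher, 37.8% lower). At 0.5% O2 the count was again 5 of 5 in chondrocyte cultures, against 69.5% (34.9% higher, 34.6% lower), and in osteoblast cultures, against 71.3% (36.2% higher, 35.1% lower). Most genes changed in these comparisons, so the number of members called is not itself a result about them. Egfr was too low to enter the oxygen fit of proliferating cells, and Btc that of chondrocyte cultures. Here Egfr entered through the differentiated libraries, and Btc in the chondrocyte and hypoxic osteoblast fits through the proliferating ones, which largely set their direction. Both comparisons at an oxygen level share the proliferating libraries. Under scaling by library size alone the share of calls that were higher moved from 50.3% to 34.7% and from 50.2% to 31.8% in normoxic and hypoxic chondrocyte cultures, and from 50.8% to 38.2% in hypoxic osteoblast cultures. The median over all genes shifted to -0.35, -0.35 and -0.23 there, and the members kept their direction. The call of Tgfa in hypoxic chondrocyte cultures was lost under that scaling (0.21, edgeR, adjusted p = 0.361), which left 4 of 5 members called there. Counted without a test, the libraries did not overlap in each of these 4 fits for Egfr and Tgfa (higher) and for Ereg, Hbegf and Btc (lower). Areg is left out, since its choice used the proliferating libraries, and Epgn, which entered no fit, overlapped. Over all genes the libraries did not overlap for 70.3% (32.9% higher, 37.5% lower) and 74.7% (37.0%, 37.8%) in normoxic chondrocyte and osteoblast cultures. In the hypoxic ones these shares were 73.8% (37.2%, 36.6%) and 74.8% (37.8%, 37.0%).

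**Figure D2:**
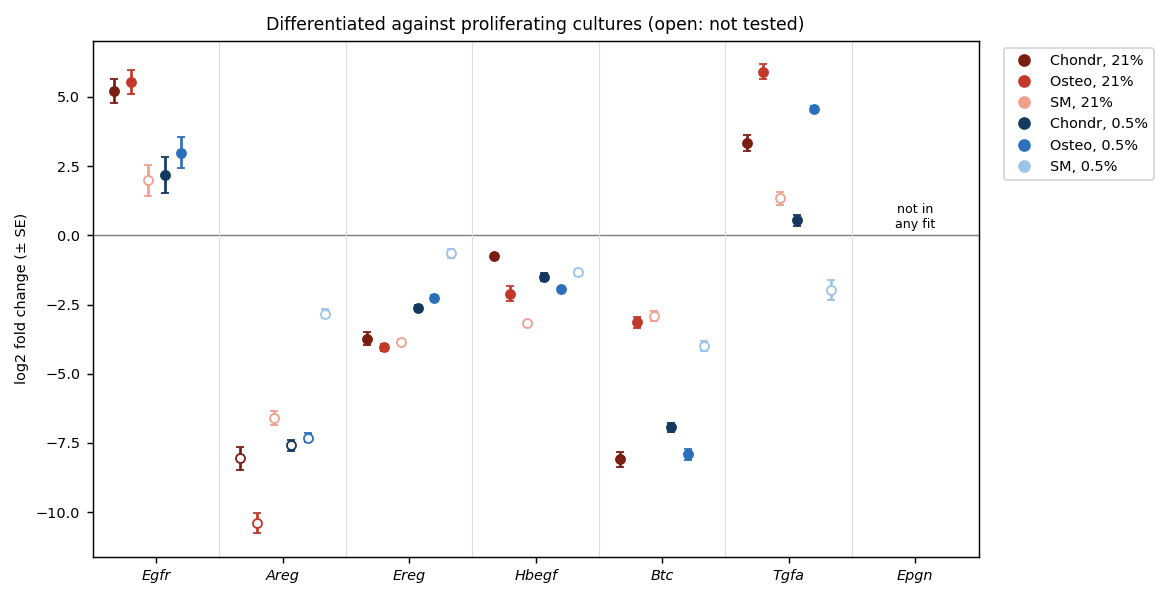
Log2 fold change (vertical axis, with SE bars) of each gene from proliferating cells in chondrocyte, osteoblast and smooth muscle (SM) cultures at 21% and 0.5% O2, where open points were not tested. Egfr lies above 0 in the 5 comparisons it entered, Areg, Ereg, Hbegf and Btc lie below 0 in all 6, and Tgfa ranges from 5.90 in normoxic osteoblast to -1.97 in hypoxic smooth muscle cultures. Egfr was too low in proliferating cells to pass the filter unless the other group was higher, so its sign follows largely from the filter.

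In smooth muscle cultures the comparison with proliferating cells chose Areg, so all members are given there without a test. At 21% O2, of the 5 members in the fit beside Areg, the libraries of the 2 groups did not overlap for 3 lower members (Ereg, Hbegf, Btc) and 1 higher member (Tgfa), against 74.9% of all genes (36.6% higher, 38.3% lower). The log2 fold changes were -3.84 (SE 0.108) for Ereg, -3.18 (SE 0.0848) for Hbegf, -2.92 (SE 0.179) for Btc and 1.34 (SE 0.227) for Tgfa. Egfr overlapped, at 1.98 (SE 0.563). At 0.5% O2, Egfr was too low to enter the fit and overlapped, and the 4 other members in the fit beside Areg were lower without overlap, against 75.3% of all genes (32.1% higher, 43.2% lower). Their log2 fold changes were -0.66 (SE 0.156) for Ereg, -1.34 (SE 0.130) for Hbegf, -4.00 (SE 0.195) for Btc and -1.97 (SE 0.362) for Tgfa, beside -2.83 for Areg. These rest on the hypoxic smooth muscle libraries that stood apart. Scaling by library size alone shifted the median of all genes from -0.07 to -1.35 and these values to -1.93 for Ereg, -2.61 for Hbegf, -5.27 for Btc, -3.24 for Tgfa and -4.11 for Areg.

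For 0.5% against 21% O2 within proliferating cells, 4 of 4 tested members were called, Hbegf, Btc and Tgfa higher and Ereg lower, against 65.4% of all genes (33.1% higher, 32.3% lower). At 0.5% against 21% O2 in chondrocyte cultures 3 of 4 were called, Hbegf higher and Egfr and Tgfa lower, against 22.2% (10.4% higher, 11.8% lower). At low oxygen in osteoblast cultures 4 of 5 were called, Ereg and Hbegf higher and Egfr and Btc lower, against 54.3% (27.0% higher, 27.3% lower). The smooth muscle count for low oxygen was 3 of 5 called, Ereg and Hbegf higher and Tgfa lower, against 75.6% (35.4% higher, 40.2% lower). There, scaling by library size alone called all 5, with Egfr and Btc also lower, and shifted the median of all genes from -0.12 to -1.49. The share of calls that were higher moved under that scaling from 46.8% to 15.6% in smooth muscle, from 46.9% to 31.8% in chondrocyte and from 49.6% to 36.9% in osteoblast cultures. Hbegf rose in all 4 culture types, also under that scaling. Libraries of the 2 oxygen levels did not overlap for 4 of 5 members in the proliferating fit, against 65.0% of all genes (30.3% higher, 34.7% lower). This held for 3 of 4 in chondrocyte cultures, against 31.8% (16.1%, 15.7%), and for 4 of 5 in osteoblast cultures, against 58.1% (29.4%, 28.7%). Beside Areg, it held for 3 of 5 in smooth muscle cultures, against 75.0% (33.2%, 41.9%). Of the interaction terms, 4 of 5 were called in chondrocyte cultures, against 43.5% of all genes, and 4 of 5 in osteoblast cultures, against 54.2%.

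**Figure D3:**
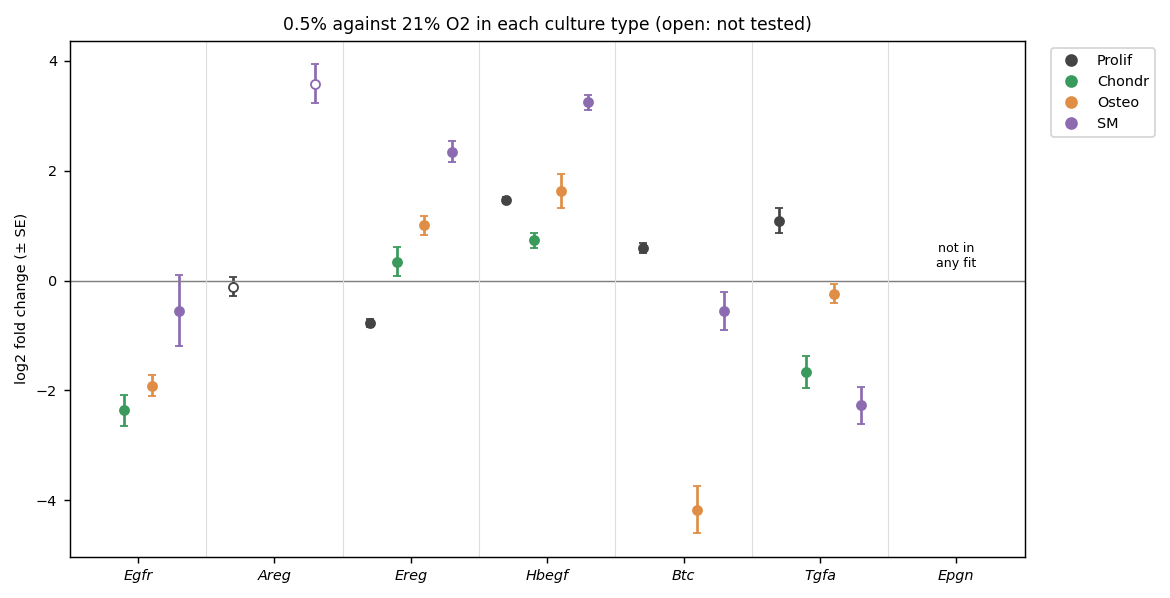
Log2 fold change (vertical axis, with SE bars) of each gene at 0.5% against 21% O2 in proliferating cells and in chondrocyte, osteoblast and smooth muscle (SM) cultures, where open points were not tested. Hbegf lies above 0 in all 4, from 0.73 to 3.25, while Egfr lies at -2.36 and -1.91 in chondrocyte and osteoblast cultures.

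Different ligands led in different cultures. To compare genes, CPM was divided by exon length in kb. The sum of the 6 ligands was 96.1 ± 12.4 CPM per kb (SD, n = 4) in normoxic and 116 ± 5.39 (n = 3) in hypoxic proliferating cells. It was 16.2 ± 2.63 and 20.7 ± 4.53 in chondrocyte, 31.6 ± 3.70 and 37.1 ± 2.55 in osteoblast, and 5.60 ± 0.508 and 30.5 ± 3.69 in smooth muscle cultures. The smooth muscle ratio of 5.44 between oxygen levels depends on the scaling: by library size alone the sums were 7.19 ± 0.622 and 15.8 ± 2.25 CPM per kb, a ratio of 2.2, an alternative chosen after the data were seen. The shares of the sum are taken within a library and do not depend on it. Areg made up 55.5% of this sum in normoxic proliferating cells, and 41.1% beside 42.4% for Hbegf in hypoxic ones. Hbegf led in chondrocyte cultures, with 65.1% at 21% O2 and 84.1% at 0.5% O2, followed by Tgfa with 25.9% and Ereg with 7.76%. Tgfa led in osteoblast cultures, with 80.7% at 21% O2 and 58.9% at 0.5% O2, with Hbegf at 13.8% and 34.6%. In normoxic smooth muscle cultures the sum was spread over Hbegf (35.3%), Ereg (20.8%), Tgfa (19.5%), Btc (13.3%) and Areg (9.44%). In hypoxic ones Hbegf held 58.2%, Areg 20.9% and Ereg 18.4%. Egfr itself was at 0.0161 CPM per kb in normoxic proliferating cells and 0.738 CPM per kb in normoxic osteoblast cultures, where Tgfa was at 25.7 CPM per kb.

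**Figure D4:**
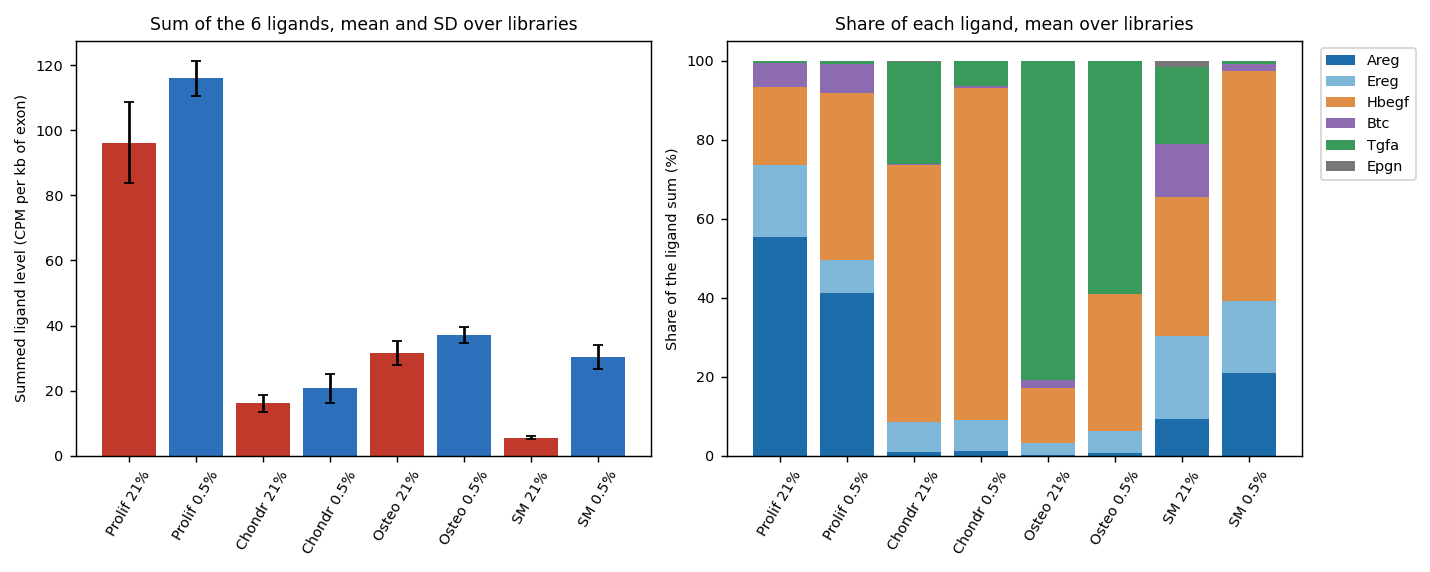
Summed level of the 6 ligands in CPM per kb of exon by group (left, bars are means with SD over 4 libraries at 21% O2 or 3 at 0.5% O2) and the mean share of each ligand in that sum in percent (right). The sum is highest in proliferating cells, where Areg and Hbegf lead, and Tgfa takes 80.7% and 58.9% in osteoblast cultures.

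Beside Adam17, Erbb2 and Errfi1, the genes of the pathway named are those with the largest called rise or fall of their list in at least 1 comparison. Some, such as Lrig1, Gab1 and Nrg1, are also given where they were not the largest, and a gene may also have changed in comparisons where it is not named. Scaling by library size alone lowered the log2 fold changes with oxygen in smooth muscle cultures: the shift was -1.38 to -1.35 over 16 named genes. The other receptors of the family followed no single pattern. Erbb2, the co-receptor without a ligand, was present in every group, from 13.4 CPM in hypoxic smooth muscle to 71.1 CPM in normoxic smooth muscle cultures. Erbb3 was at 0.0322 to 3.41 CPM, and Erbb4, the other receptor of Btc, Ereg and Hbegf, at no more than 0.0201 CPM. Erbb2 rose with differentiation by 0.37 (SE 0.0623) and 0.90 (SE 0.0548) on the log2 scale in normoxic chondrocyte and osteoblast cultures, and by 0.47 (SE 0.0797) and 0.78 (SE 0.109) in the hypoxic ones. With low oxygen it rose by 0.24 (SE 0.0787) in chondrocyte cultures and fell by 2.33 (SE 0.135) in smooth muscle cultures. The values in proliferating and osteoblast cultures, 0.12 (SE 0.0615) and 0.00 (SE 0.112), did not pass the test. Erbb3 fell in chondrocyte cultures by 1.74 (SE 0.354) at 21% O2 and 6.47 (edgeR, adjusted p = 8.39e-07) at 0.5% O2, a difference of -4.72 (SE 0.819), and rose with low oxygen in proliferating cells by 1.81 (SE 0.261).

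Of the 5 remaining ERBB ligand genes, 3 (Egf, Nrg1, Nrg2) entered the fits. Egf, the ligand that gives the receptor its name, was at 0.409 to 1.39 CPM in all groups and rose by 1.18 (SE 0.333) and 1.22 (SE 0.315) in normoxic chondrocyte and osteoblast cultures and by 1.22 (SE 0.421) in hypoxic osteoblast cultures. The neuregulin gene Nrg2 fell by 2.88 (SE 0.410) and 3.30 (SE 0.279) in normoxic and hypoxic chondrocyte cultures and by 1.48 (SE 0.280) in hypoxic osteoblast cultures. Nrg1 fell by 2.79 (SE 0.115) in normoxic osteoblast cultures and by 0.90 (SE 0.167) in hypoxic osteoblast cultures, and rose by 1.07 (SE 0.0715) and 1.34 (SE 0.114) in normoxic and hypoxic chondrocyte cultures. With low oxygen Nrg1 fell in proliferating cells by 0.62 (SE 0.102) and in chondrocyte cultures by 0.33 (SE 0.0811), and rose in osteoblast cultures by 1.27 (SE 0.198) and in smooth muscle cultures by 1.97 (SE 0.212). Nrg2 fell with low oxygen in osteoblast cultures by 1.57 (SE 0.397). The osteoblast change differed between oxygen levels by 1.94 (SE 0.210) for Nrg1 and -1.91 (SE 0.426) for Nrg2.

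Of 6 listed genes of ligand release, 5 entered the fits: the sheddases Adam17 and Adam10, the inactive rhomboids Rhbdf1 and Rhbdf2 that carry ADAM17 to the surface, and their partner Frmd8. In normoxic chondrocyte cultures, against proliferating cells, 3 were higher and 1 lower, with Adam17 at 0.41 (SE 0.0627), Rhbdf1 at 0.62 (SE 0.0591) and Frmd8 at -0.19 (SE 0.0550), where 37.7% of all genes were called higher and 37.2% lower. In the other 3 comparisons with proliferating cells the counts were 2 and 2 (normoxic osteoblast), 1 and 1 (hypoxic chondrocyte) and 2 and 2 (hypoxic osteoblast), where all genes gave 78.7%, 69.5% and 71.3% called. Adam17 rose in osteoblast cultures by 1.08 (SE 0.115) at 21% O2 and 1.5 (SE 0.0709) at 0.5% O2. Rhbdf2 fell there by 0.83 (SE 0.258) and 0.89 (SE 0.148), and in hypoxic chondrocyte cultures by 0.97 (SE 0.136). In the latter Adam10 rose by 0.53 (SE 0.0594) and Adam17 was at 0.05 (SE 0.0608; edgeR, adjusted p = 0.524), or -0.28 (adjusted p = 0.000846) scaled by library size alone.

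With low oxygen, Adam17 rose in proliferating cells by 0.52 (SE 0.0543) and in osteoblast cultures by 0.94 (SE 0.131). It was at 0.17 (SE 0.0708; edgeR, adjusted p = 0.102) in chondrocyte cultures and fell in smooth muscle cultures by 1.09 (SE 0.0958), where Adam10 fell by 3.27 (SE 0.115). Rhbdf2 rose in proliferating cells by 0.68 (SE 0.123), where Frmd8 fell by 0.23 (SE 0.0530). Rhbdf1 fell in chondrocyte cultures by 0.43 (SE 0.0704) and in osteoblast cultures by 0.70 (SE 0.0968). In smooth muscle cultures Rhbdf1 was at 0.87 (SE 0.133; adjusted p = 2.73e-05), but at -0.49 (adjusted p = 0.00663) scaled by library size alone. The chondrocyte change differed between oxygen levels by -0.33 (SE 0.0895) for Adam17, 0.36 (SE 0.103) for Frmd8 and -1.04 (SE 0.186) for Rhbdf2. The osteoblast change differed by 0.46 (SE 0.148) for Adam17, 0.77 (SE 0.0975) for Frmd8 and -0.68 (SE 0.112) for Rhbdf1.

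All 9 listed receptor inhibitors entered the fits. Against proliferating cells 4 were higher and 2 lower in normoxic chondrocyte cultures, 5 and 3 in normoxic osteoblast, 4 and 3 in hypoxic chondrocyte and 5 and 3 in hypoxic osteoblast cultures. Of all genes 74.9%, 78.7%, 69.5% and 71.3% were called in these comparisons. Cblb, a ubiquitin ligase that marks the receptor for degradation, rose in these 4 by 2.63 (SE 0.141), 2.34 (SE 0.146), 1.48 (SE 0.0823) and 2.49 (SE 0.0706). Lrig1, a membrane protein that also promotes its degradation, fell in the same 4 by 2.36 (SE 0.112), 1.60 (SE 0.174), 2.80 (SE 0.0745) and 2.19 (SE 0.102). Errfi1, whose protein blocks the receptor's kinase, went opposite ways in the culture types. It fell in chondrocyte cultures by 2.22 (SE 0.259) and 3.39 (SE 0.120) and rose in osteoblast cultures by 0.77 (SE 0.111) and 1.59 (SE 0.0802), at 21% and 0.5% O2.

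With low oxygen the inhibitors were 6 higher and 3 lower in proliferating cells, 1 and 3 in chondrocyte, 4 and 2 in osteoblast, and 1 and 6 in smooth muscle cultures. All genes gave 65.4%, 22.2%, 54.3% and 75.6% called. Cblb rose by 1.54 (SE 0.140), 0.40 (SE 0.0861) and 1.69 (SE 0.0730) in the first 3. The phosphatase gene Ptpn1 fell by 0.67 (SE 0.0607) in proliferating cells and by 0.91 (SE 0.170) in osteoblast cultures, Lrig1 fell by 0.15 (SE 0.0556), 0.56 (SE 0.134), 0.73 (SE 0.215) and 0.37 (SE 0.0938) in proliferating, chondrocyte, osteoblast and smooth muscle cultures, and Ptprj fell by 2.02 (SE 0.291) in smooth muscle cultures. Errfi1 rose by 0.38 (SE 0.0490) in proliferating cells and 1.20 (SE 0.141) in osteoblast cultures, and was at -0.77 (SE 0.337; edgeR, adjusted p = 0.165) in chondrocyte cultures. In smooth muscle cultures it was at 1.22 (SE 0.108; adjusted p = 7.37e-08), but at -0.15 (adjusted p = 0.235) scaled by library size alone. The change with differentiation differed between oxygen levels by -1.14 (SE 0.352) for Errfi1 in chondrocyte cultures, and by 0.86 (SE 0.152) for Errfi1 and -1.37 (SE 0.372) for Ptprj in osteoblast cultures.

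Of 10 adaptor and RAS genes, all in the fits, 2 were higher and 6 lower than in proliferating cells in normoxic chondrocyte, 3 and 4 in normoxic osteoblast, 3 and 4 in hypoxic chondrocyte and 3 and 4 in hypoxic osteoblast cultures. All genes gave 37.7% higher and 37.2% lower, 40.9% and 37.8%, 34.9% and 34.6%, and 36.2% and 35.1%. Eps8, a receptor substrate that acts on actin, fell in these 4 by 3.32 (SE 0.0992), 3.57 (SE 0.318), 3.54 (SE 0.252) and 1.82 (SE 0.0672). The docking protein gene Gab1 rose in the same 4 by 1.5 (SE 0.0766), 2.31 (SE 0.184), 0.43 (SE 0.103) and 1.04 (SE 0.100), and Hras rose by 1.04 (SE 0.0901) in hypoxic chondrocyte cultures. With low oxygen, where all genes gave 65.4%, 22.2%, 54.3% and 75.6% called in proliferating, chondrocyte, osteoblast and smooth muscle cultures, the adaptor counts were as follows. In proliferating cells 2 were higher and 6 lower, where Shc1 rose by 0.79 (SE 0.0712) and Hras fell by 1.13 (SE 0.0792). The counts were 1 and 2 in chondrocyte cultures, where Ptpn11 rose by 0.20 (SE 0.0619) and Eps8 fell by 0.78 (SE 0.219). They were 2 and 3 in osteoblast cultures, where Eps8 rose by 1.17 (SE 0.347) and Gab1 fell by 0.72 (SE 0.198). In smooth muscle cultures they were 2 and 6, with Gab1 at -2.41 (SE 0.128) and Hras at 1.23 (SE 0.100), the latter at -0.15 scaled by library size alone. The chondrocyte change differed between oxygen levels by 1.27 (SE 0.115) for Hras and -1.03 (SE 0.119) for Gab1, and the osteoblast change by 1.79 (SE 0.381) for Eps8 and -1.23 (SE 0.220) for Gab1.

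Genes known to be induced by EGF and by other ERK activators such as bFGF and serum were mostly lower in chondrocyte and osteoblast cultures than in proliferating cells, in whose medium bFGF was present. All 16 listed genes entered the fits. Against proliferating cells, 13 were lower and 2 higher in normoxic chondrocyte cultures, with a median log2 fold change of -2.11, against 0 over all genes, of which 37.2% were lower and 37.7% higher. In normoxic osteoblast cultures 13 were lower and 2 higher, with a median of -3.59 against 0.07, and 37.8% and 40.9% of all genes. Scaled by library size alone, 1 was higher in each of these. The counts at 0.5% O2 were 13 lower and 3 higher in both chondrocyte cultures (median -2.54 against -0.02) and osteoblast cultures (-2.14 against 0), against 34.6% lower and 34.9% higher, and 35.1% and 36.2%, of all genes. Fos, an AP-1 gene, went the other way, rising by 2.77 (SE 0.273) and 3.52 (SE 0.192) at 21% O2 and by 2.57 (SE 0.414) and 7.35 (SE 0.207) at 0.5% O2. The ETS factor gene Etv4 fell by 3.97 (SE 0.376) in normoxic chondrocyte and 8.45 (SE 0.177) in normoxic osteoblast cultures. In hypoxic chondrocyte cultures the RAS pathway inhibitor Spry4 fell by 4.97 (SE 0.157), and in hypoxic osteoblast cultures Etv5 fell by 3.62 (SE 0.0858).

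With 0.5% against 21% O2 within osteoblast cultures, 14 of the 16 EGF-induced genes rose and 0 fell (median 2.36, against -0.03 over all genes, of which 27.0% were higher and 27.3% lower), led by the AP-1 gene Fosl1 at 6.5 (SE 0.425), from a mean of 0.688 to 64.4 CPM. The other 2 were uncalled, and without normoxic replicate 4 the counts were 15 and 1. With low oxygen in smooth muscle cultures 14 of 16 rose and 0 fell (median 2.53 against -0.12, with 35.4% of all genes higher and 40.2% lower), led by the ERK phosphatase gene Dusp4 at 4.49 (SE 0.167). Scaled by library size alone, 10 rose and 3 fell there, with a median of 1.17 against -1.49. With low oxygen in proliferating cells 9 rose and 4 fell (median 0.37 against 0.01, with 33.1% of all genes higher and 32.3% lower), with Ier3 at 3.34 (SE 0.102) and Egr1 at -0.72 (SE 0.0790). With all 28 libraries in one fit 4 rose and 0 fell. In chondrocyte cultures 5 rose and 3 fell with low oxygen (median 0.35 against -0.01, with 10.4% of all genes higher and 11.8% lower), with Ier3 at 1.64 (SE 0.0806) and Egr1 at -2.32 (SE 0.114). That number of rises rests on single libraries. It was 2 without normoxic chondrocyte replicate 3 (median 0.30) or hypoxic chondrocyte replicate 1 (median 0.17), and 3 without normoxic replicate 2, hypoxic replicate 2 or hypoxic replicate 3, while 3 fell each time. Of the 44 pathway genes tested for oxygen in chondrocyte cultures (49 listed), 18 were called, against 22.2% of all genes. Without hypoxic chondrocyte replicate 3 the number called was 11, and the count over all genes went from 3157 to 2091. The osteoblast change differed between oxygen levels for 12 of 16, 11 higher and 1 lower (28.9% and 25.3% of all genes), from 6.17 (SE 0.373) for Fosl1 to -0.73 (SE 0.179) for Ier3. The chondrocyte change differed for 6, 2 higher and 4 lower (21.6% and 21.9% of all genes), from 0.93 (SE 0.123) for Plaur to -1.69 (SE 0.126) for Ier3. The number higher was 1 without hypoxic proliferating replicate 3, without hypoxic chondrocyte replicate 1, and with all 28 libraries in 1 fit.

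**Figure D5:**
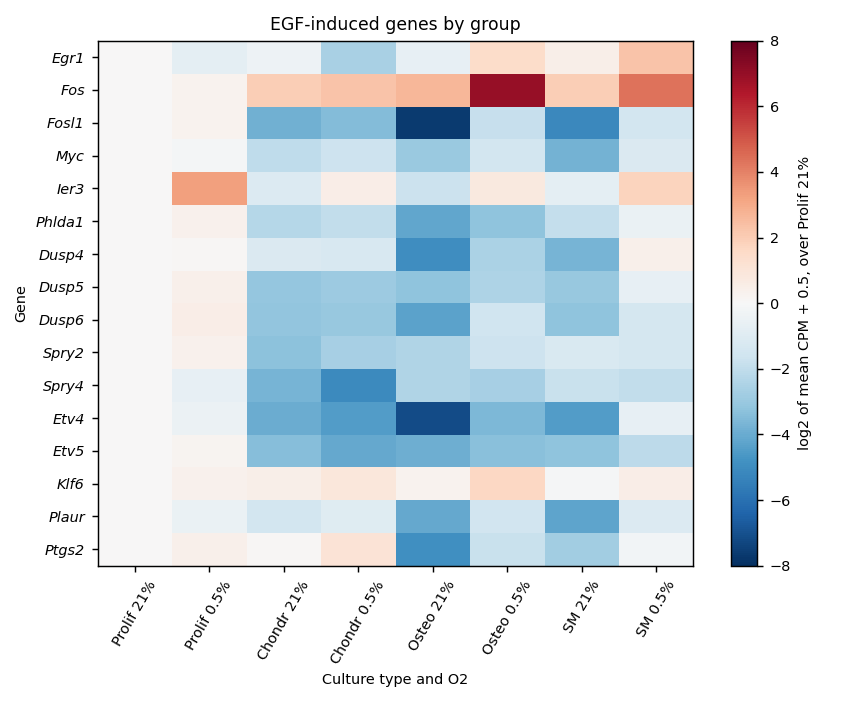
Mean level of the 16 EGF-induced genes (rows) in the 8 groups (columns), as log2 of (mean CPM + 0.5) relative to normoxic proliferating cells, from blue (lower) to red (higher). Most rows are blue in normoxic osteoblast and smooth muscle cultures and paler at 0.5% O2, and Fos is red in all 6 differentiated groups.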

How the data were processed

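Polyadenylated RNA of 28 libraries was sequenced after a stranded library kit, per the labels. The submitters' processing notes list HISAT2 2.0.5, StringTie 1.3.3b, featureCounts 1.5.0-p3 and build mm10; how they were combined, the annotation and the use of strand are not given in the sources used here. The authors deposited whole-number read counts per gene, which were tested as deposited, and log2 fold changes in 10 comparison tables, used only as a check. The 70 columns of normalised values deposited by the authors were not used. Symbols matched for 54314 of 54429 identifiers (99.8%), and 99 carried no symbol.

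Each comparison was fitted over all genes with edgeR 4.0.16 (R 4.3.3; TMM scaling, filterByExpr with its minimum count of 10 and total of 15, robust quasi-likelihood F test, Benjamini-Hochberg adjustment, calls at adjusted p under 0.05) on the libraries of the groups compared. SE is the log2 fold change divided by the square root of F. Some fits were also run on simulated data in which few genes changed and every library had the same spread. These data differ in both, so that run does not measure error rates here. Alternatives were limma-voom (limma 3.58.1), DESeq2 1.42.0, other scalings and filters, all libraries in one fit, a replicate block, leaving out each library, and replicates 1 to 3 only, the last chosen after seeing the data. No 2 libraries were identical. Intervals are exact (95%), and they and the floor of 3 counts cover counting error only. Exon lengths and positions come from GENCODE M21.

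The members, gene lists and tests were chosen with earlier results of these data known. Named pathway genes are, per list and comparison, the called gene with the largest rise and fall, and always Adam17, Erbb2 and Errfi1. Genes like Areg or Egfr are the 5 with the highest Pearson correlation of log2 CPM (prior count 2).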

Additional observations from a re-analysis of the deposited data

Results flagged for a closer look

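In 4 of 28 checks of a gene over the 4 libraries of a normoxic group, 1 library lay far from the other 3 by Dixon's criterion, and each time it was replicate 4. Chance gives about 1 such case in 20 groups. Areg was at 87.9 CPM in normoxic proliferating replicate 4, against 57.4 to 58.3 CPM in the others. Tgfa was at 4.62 CPM in the same library, against 2.24 to 2.58 CPM. In normoxic osteoblast replicate 4, Hbegf was at 34.4 CPM, against 14.5 to 15.6 CPM, and Tgfa at 115 CPM, against 179 to 188 CPM. Over all genes, the chi-square per gene between libraries was 91.1 to 97.0 for pairs of normoxic osteoblast libraries with replicate 4, against 2.89 to 3.88 for the others, and 18.3 to 22.3 against 5.18 to 5.83 in normoxic proliferating cells. By this measure single libraries with other replicate numbers also stood apart, in hypoxic chondrocyte and hypoxic osteoblast cultures. The labels name no batch, and no 0.5% O2 group has a replicate 4. A part of that replicate number in these values was not tested.

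The change with differentiation differed between oxygen levels, by the edgeR interaction term, for 4 of 5 tested members in each of 2 culture types. Of all genes, 43.5% were called in chondrocyte and 54.2% in osteoblast cultures. In chondrocyte cultures the differences on the log2 scale were -2.99 for Egfr, 1.13 for Ereg, -0.72 for Hbegf and -2.75 for Tgfa. In osteoblast cultures they were -2.51 for Egfr, 1.82 for Ereg, -4.73 for Btc and -1.30 for Tgfa. Both Egfr terms failed to pass by limma-voom (adjusted p = 0.164 and 0.169) and without hypoxic proliferating replicate 2 or 3. The chondrocyte Hbegf term did not pass by edgeR with all 28 libraries in one fit (adjusted p = 0.0836).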

How the results depend on the processing

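Of the 10 counts of members called, 1 changed by over 1.5 times: scaling by library size alone called 5 members, not 3, for oxygen in smooth muscle cultures. Direction reversed in few cases. The change of Areg with oxygen in proliferating cells was -0.12, but 0.06 with the replicate block and 0.05 with replicates 1 to 3 only, and it ranged from -0.18 to 0.05 when libraries were left out in turn, the highest without normoxic proliferating replicate 4. Scaled by library size alone, Adam17 was at -0.28 in hypoxic chondrocyte cultures against hypoxic proliferating cells, and Rhbdf1, Errfi1 and Hras were at -0.49, -0.15 and -0.15 for oxygen in smooth muscle cultures. The oxygen difference of the osteoblast change of Erbb2 was -0.15 to 0.06 when libraries were left out in turn, the highest without hypoxic osteoblast replicate 3, against -0.08 with all libraries. The cause was not tested. With all 28 libraries in one fit, 20 and not 35 pathway genes were called for oxygen in proliferating cells. The main fit tested 45 of them and called 65.4% of all genes. Over the alternatives other than leaving out single libraries, the count over all genes ran from 8102 to 10035, against 9261 in the main fit. The replicate numbers do not pair the libraries: correlations of same-numbered deviations were -0.0566 to 0.0814, and in 0 of 10 comparisons were all over 0.1. With the replicate block, in which a normoxic replicate 4 has no partner and carries no weight on oxygen, Ereg was called for oxygen in chondrocyte cultures (0.66, adjusted p = 0.0310) and Tgfa in osteoblast cultures (-0.38, adjusted p = 0.000353). It changed no other call of a member. Depth limits Epgn in all groups, and Areg, Btc and Egfr where a group held few counts.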
